A study of Homo sapiens with 6 samples.

Results

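The interferon-stimulated antiviral genes described here are 48 named genes, each matched to exactly 1 of the 60545 rows of a gene count table. The table covers 6 RNA-sequencing libraries of PC3, an established line grown out of a bone metastasis of a prostate carcinoma. Of these, 3 libraries came from cells given RSM3, which the series title calls a peptide, and 3 from Control cells, with all cells grown in RPMI-1640 medium with fetal bovine serum. Dose and duration are not in the labels. Nor do the labels say whether replicates were separate cultures, so each p-value measures the spread among these 6 libraries alone, and that spread may be technical. The comparison of RSM3 with Control asks whether exposure to the peptide changed the transcripts of the antiviral program.

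Type I and type III interferons are secreted proteins that act through JAK kinases on transcription factors that bind interferon-stimulated response elements in the promoters of target genes. The products of those genes sense viral RNA, degrade it, block its translation, or hinder the entry and release of virus particles. Many carcinoma lines express part of this program in culture without added interferon.

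A core of that element was searched for in the RefSeq promoters (GRCh38.p14, 250 bases before to 50 after each start site) of the members. Of 48 members, 38 had an entry, and those without one were IFIT2, TRIM22, OASL, USP18, IRF7, IFITM2, MX2, GBP2, OAS2 and DHX58. The core searched was GAAA, NN, GAAA (any pair of bases between the tetramers), on both strands with overlapping matches counted separately. It was found in 24 of the 38, or 63.2%, against 3.65% of 27305 promoters of the same length, and 15 of the 24 held more than 1 match. A match is a description of the letters and not of binding, and a window without a match may still hold a near variant of the core. The sequences below are shown because they cover the range seen, from several matches to none, and because GBP1 and ZC3HAV1 are the members that passed the test described further on. Each runs 5′ to 3′ along its gene's strand, with the letters of a match in capitals (TTTC, NN, TTTC where the match is on the other strand).
ISG15: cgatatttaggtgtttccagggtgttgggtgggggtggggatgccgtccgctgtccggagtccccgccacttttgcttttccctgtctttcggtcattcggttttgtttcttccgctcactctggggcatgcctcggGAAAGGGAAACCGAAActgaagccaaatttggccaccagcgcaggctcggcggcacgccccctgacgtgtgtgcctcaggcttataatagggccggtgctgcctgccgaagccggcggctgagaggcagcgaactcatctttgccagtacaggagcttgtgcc
OAS3: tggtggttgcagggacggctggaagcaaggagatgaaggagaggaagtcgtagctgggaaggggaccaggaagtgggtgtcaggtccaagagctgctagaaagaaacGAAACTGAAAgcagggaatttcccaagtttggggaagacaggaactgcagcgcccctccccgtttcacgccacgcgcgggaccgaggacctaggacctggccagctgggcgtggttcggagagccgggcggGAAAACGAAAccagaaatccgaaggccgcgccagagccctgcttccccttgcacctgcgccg
IFIT1: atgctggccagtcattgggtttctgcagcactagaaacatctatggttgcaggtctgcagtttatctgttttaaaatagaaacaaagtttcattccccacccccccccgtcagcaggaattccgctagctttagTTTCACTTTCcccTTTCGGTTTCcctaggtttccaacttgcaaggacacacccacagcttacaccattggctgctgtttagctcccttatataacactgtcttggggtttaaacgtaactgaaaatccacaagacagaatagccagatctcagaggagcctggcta
GBP1: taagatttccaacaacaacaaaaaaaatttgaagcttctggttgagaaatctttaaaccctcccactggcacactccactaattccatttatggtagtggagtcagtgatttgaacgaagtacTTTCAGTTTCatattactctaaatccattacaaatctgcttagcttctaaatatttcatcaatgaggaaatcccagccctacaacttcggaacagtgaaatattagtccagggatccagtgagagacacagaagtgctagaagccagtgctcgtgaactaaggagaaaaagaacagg
ZC3HAV1: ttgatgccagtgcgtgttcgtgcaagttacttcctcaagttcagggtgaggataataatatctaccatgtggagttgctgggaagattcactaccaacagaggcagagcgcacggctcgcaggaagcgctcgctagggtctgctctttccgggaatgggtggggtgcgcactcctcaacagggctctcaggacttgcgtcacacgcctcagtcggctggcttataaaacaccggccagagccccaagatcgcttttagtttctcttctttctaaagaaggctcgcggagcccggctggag
The ISG15 window lies at chr1:1013247-1013546 on the plus strand, and its matches overlap, beginning 113 and 107 bases before the start site. In OAS3 (chr12:112938224-112938523, plus strand) they begin 143 and 12 bases before it, and in IFIT1 (chr10:89392373-89392672, plus strand) 116 and 103 bases before it. GBP1 (chr1:89065159-89065458, minus strand) has a single match 127 bases before the start, and the window of ZC3HAV1 (chr7:139109671-139109970, minus strand) has none of these letters.

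Total counts per library ran from 14091359 to 18594251. Among genes that mark the PC3 line, the epithelial keratins KRT8, KRT18 and KRT19 and the mesenchymal gene VIM stood at 169 to 1088 CPM (TMM-normalised counts-per-million) in every library, the epithelial adhesion genes EPCAM and CDH1 at 4.87 to 11.5 CPM, and KLK2, an androgen-driven luminal gene, had no count. Leukocyte markers, 9 genes none of which reached the expression filter, summed to 2.00 to 3.19 CPM in Control and 1.16 to 2.11 CPM in RSM3, with CD3E at 0. RSM3 replicate 1 stood apart by base composition: across 15620 genes, its log2 values, relative to each gene's mean, had a Spearman correlation of 0.421 with transcript GC content, against −0.323 to 0.162 in the other libraries (genes are not independent). Control replicates 1 and 2 stood apart by TPM1, a tropomyosin gene, at 102 and 109 CPM against 29.4 to 31.5 CPM elsewhere. The median GC content of the tested members was 46.4%, and that of all tested genes 48.9%.

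Most antiviral genes lay above the typical gene in the Control libraries. Of the 48 members, 47 passed the expression filter, and by their Control mean 40 of these lay above the median level per length of all tested genes (CPM per kilobase of exon), 18 of them in the top 10%. The median Control level was 17.6 CPM per kilobase for members and 4.48 for all tested genes. ISG15, a ubiquitin-like modifier, was highest in Control at 337 ± 32.9 CPM per kilobase (SD, n = 3), followed by IFITM3 at 299.9 ± 18.0, IFI6 at 220 ± 34.0 and IFITM1 at 218 ± 31.2. IFI6 and IFITM1 did not differ beyond their spread, and the ranges of ISG15 and IFITM3 within 1 SD overlapped. IFITM2 came next, well below, at 76.7 ± 5.49 CPM per kilobase. At the low end stood TRIM22 at 1.40 ± 0.332 and XAF1 at 0.507 ± 0.317 CPM per kilobase. The member that did not pass the filter was DHX58, which encodes the sensor LGP2, with 8 counts over the Control libraries and 2 over the RSM3 libraries. Since the RNA came from whole cultures, a difference in the number of expressing cells and a difference in RNA per cell cannot be told apart.

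**Figure D1:**
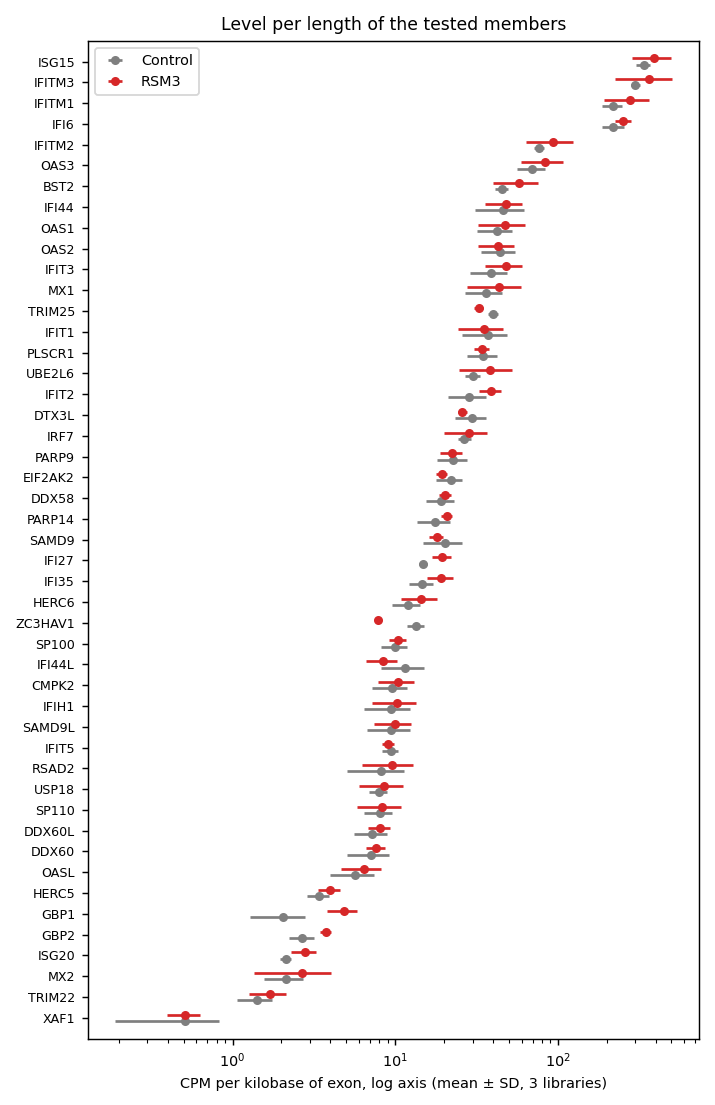
Level of each tested member in CPM per kilobase of exon (log axis), as the mean of the 3 Control libraries (grey) and the 3 RSM3 libraries (red) with SD as bars, ordered by level. ISG15, IFITM3, IFITM1 and IFI6 stand above 200 CPM per kilobase in both groups, and the groups lie close together at most genes compared with the bars.

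The members differed between libraries of the same group more than most genes did. Together they took 4821, 6066 and 6921 CPM in Control replicates 1, 2 and 3, and 7984, 5863 and 5421 CPM in RSM3 replicates 1, 2 and 3. The lowest and highest Control values thus enclosed RSM3 replicates 2 and 3, and RSM3 replicate 1 lay above all Control libraries. Among the Control libraries, 45 of the 47 tested members were lowest in replicate 1 and 41 were highest in replicate 3. Both held for 40 members (85.1%) and for 18.6% of all tested genes. Among the RSM3 libraries, 36 members (76.6%) were highest in replicate 1 and lowest in replicate 3, as were 18.4% of all tested genes. The median member spanned 1.5-fold between the lowest and highest Control library and 1.53-fold between the RSM3 libraries, where the median of all tested genes spanned 1.16-fold and 1.27-fold. In 27 members (57.4%) Control replicate 1 was the lowest of all 6 libraries and RSM3 replicate 1 the highest, against 4.57% of all tested genes. After an offset for GC content and length was fitted per library, added after the data were seen, the median member still spanned 1.47-fold in Control and 1.57-fold in RSM3, and the median of all genes 1.152-fold and 1.205-fold. The part of library preparation or culture in this spread was not tested.

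**Figure D2:**
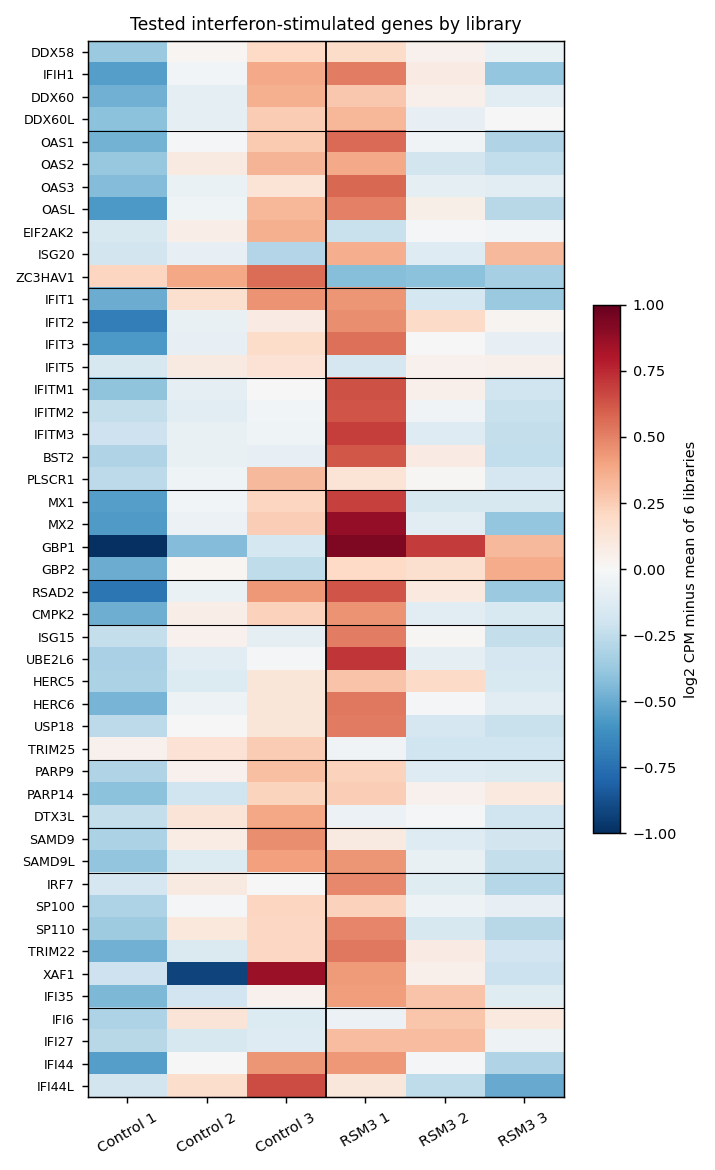
Log2 CPM of each tested member minus its mean over the 6 libraries, with libraries in columns and members in rows grouped by role (horizontal lines). Control replicate 1 is below the mean for nearly all members and RSM3 replicate 1 above it for most. ZC3HAV1, TRIM25, GBP1, GBP2 and IFI27 separate the groups.

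In the test of RSM3 against Control, 2 members passed. GBP1 rose 2.35-fold and ZC3HAV1 fell, with a log2 fold change of −0.78 ± 0.10 (SE), and 45 did not pass (edgeR quasi-likelihood test, adjusted p under 0.05 over all genes). That is 4.26% of the members tested, where 4.2% of all 15773 genes tested were called, 3.09% higher and 1.1% lower in RSM3. The values of the groups did not overlap for 5 members (10.6%), GBP1, GBP2 and IFI27 higher and ZC3HAV1 and TRIM25 lower, against 23.9% of all genes, 12.8% higher and 11.1% lower. At an unadjusted p under 0.05 there were 9 members (19.1%), 6 higher and 3 lower, against 17.8% of all genes, 9.94% higher and 7.84% lower. The median log2 fold change was 0.17 in the members and −0.0048 in all genes tested. It was −0.05 without RSM3 replicate 1, 0.01 without Control replicate 1, 0.34 without Control replicate 3 and 0.25 without RSM3 replicate 3. Over all genes 488 rose and 174 fell, and 308 rose and 254 fell when libraries were scaled by their totals alone.

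**Figure D3:**
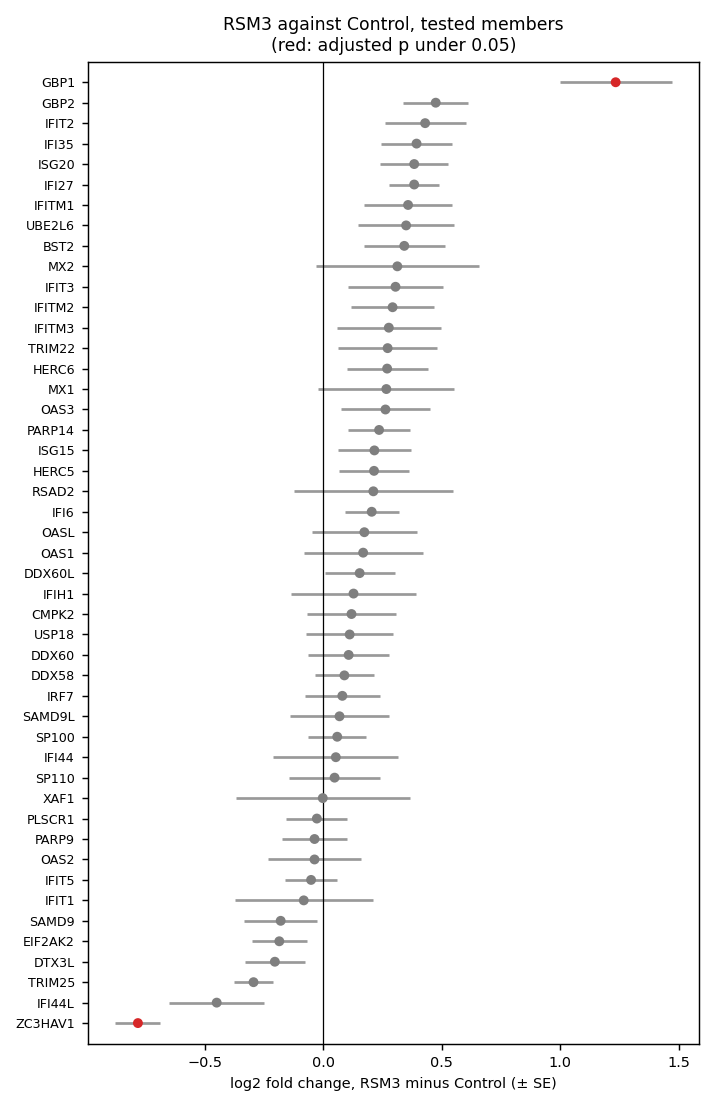
Log2 fold change of RSM3 over Control for the 47 tested members, with SE as bars, ordered by size. Red points mark an adjusted p under 0.05: ZC3HAV1 at −0.78 and GBP1 at 1.23, with the other members between −0.45 and 0.47.

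The effectors that act on RNA held the member that fell. ZC3HAV1 encodes the zinc finger antiviral protein ZAP, which binds CpG-rich viral RNA and recruits decay factors. It stood at 97.7, 110 and 123 CPM in Control replicates 1, 2 and 3 and at 62.5, 63.3 and 66.8 CPM in RSM3 replicates 1, 2 and 3 (chromosome 7, 139043520 to 139109719, GRCh38). Every RSM3 library lay below every Control library, and the edgeR adjusted p was 0.00055. The call held in all 16 alternative settings, with log2 fold changes from −0.94 to −0.69.

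The oligoadenylate synthetases, which make the messenger that activates RNase L, did not pass the test. OAS3 stood at 456, 588 and 677 CPM in Control and 917, 576 and 571 CPM in RSM3, a log2 fold change of 0.26 ± 0.19 (SE, adjusted p = 0.534, edgeR). OAS2 stood at 206, 285 and 339 CPM in Control and 348, 236 and 226 CPM in RSM3 (log2 fold change −0.04 ± 0.20, adjusted p = 0.950, edgeR). In both genes RSM3 replicate 1 was the highest library and Control replicate 1 the lowest. OAS1, OASL, the RNA-activated kinase gene EIF2AK2 and the exonuclease gene ISG20 had log2 fold changes of 0.17, 0.17, −0.19 and 0.38, none of them called.

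**Figure D4:**
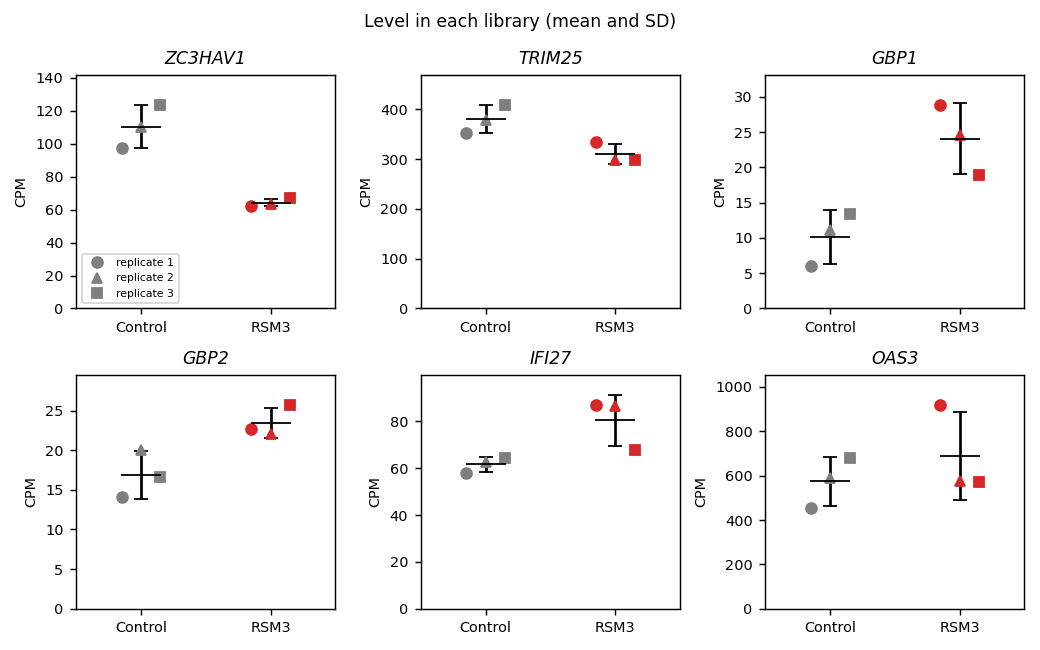
CPM in each library for ZC3HAV1, TRIM25, GBP1, GBP2, IFI27 and OAS3, with symbols for replicates, the mean as a line and the SD as bars. The groups are separate in all panels but OAS3, where RSM3 replicate 1 lies above 5 overlapping libraries.

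The GTPase genes held the member that rose. GBP1 encodes a guanylate-binding protein that coats intracellular pathogens and is induced by interferon-γ and by inflammatory cytokines. It stood at 5.97, 11.2 and 13.4 CPM in Control and at 28.8, 24.5 and 18.9 CPM in RSM3 (chromosome 1, 89052319 to 89065360; log2 fold change 1.23 ± 0.24, adjusted p = 0.0115, edgeR). All RSM3 libraries lay above all Control libraries, although both groups were widely spread. The call was lost without RSM3 replicate 1 (log2 fold change 1.09, adjusted p = 0.194), without RSM3 replicate 2 (1.22, adjusted p = 0.0915), with GC and length corrected (1.25, adjusted p = 0.0744) and with a term for Control replicates 1 and 2 (log2 fold change 0.84, adjusted p = 0.309), all in edgeR. A replicate block also lost the GBP1 call, alone (log2 fold change 1.26, adjusted p = 0.0927, edgeR) or with GC and length corrected (1.26, adjusted p = 0.272, edgeR). Like most members, GBP1 was lowest in Control replicate 1 and highest in RSM3 replicate 1. GBP2, the neighbour of GBP1, stood at 14.1, 20.1 and 16.6 CPM in Control and 22.7, 22.1 and 25.7 CPM in RSM3 (log2 fold change 0.47 ± 0.14, adjusted p = 0.0763, edgeR). GBP2 was called in edgeR with GC and length corrected, with no filter and without RSM3 replicate 1.

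The dynamin-like GTPases, which trap viral nucleocapsids, varied between libraries and did not pass the test. MX1 stood at 225, 324 and 381 CPM in Control and 530, 294 and 295 CPM in RSM3 (adjusted p = 0.713, edgeR). MX2 stood at 20.1, 28.5 and 35.3 CPM in Control and 54.7, 27.5 and 22.8 CPM in RSM3 (adjusted p = 0.717, edgeR). RSM3 replicates 2 and 3 lay within the range of Control for both genes, and RSM3 replicate 1 lay above it.

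Sensors of viral RNA showed no called change. DDX58, which encodes RIG-I, a sensor of 5′-triphosphate RNA, stood at 65.8, 86.3 and 97.8 CPM in Control and 96.7, 87.8 and 81.3 CPM in RSM3. DDX60L, a helicase gene related to DDX60, stood at 68.8, 85.7 and 109 CPM in Control and 115, 86.5 and 91.8 CPM in RSM3. The values of both groups overlapped in these and in IFIH1, which encodes the long double-stranded RNA sensor MDA5, and DDX60. The log2 fold changes of the 4 tested sensors were 0.09 to 0.15, with adjusted p values of 0.658 to 0.862 in edgeR.

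IFIT proteins bind the 5′ ends of foreign mRNA and block its translation. IFIT1 stood at 114, 180 and 221 CPM in Control and 219, 143 and 125 CPM in RSM3 (log2 fold change −0.08 ± 0.29, adjusted p = 0.923, edgeR). IFIT2, a neighbour on chromosome 10, stood at 83.2, 127 and 142 CPM in Control and 185, 153 and 136 CPM in RSM3 (0.43 ± 0.17, adjusted p = 0.208, edgeR). IFIT1 overlapped throughout, and in IFIT2 a single RSM3 library lay below the highest Control value. IFIT2 was called higher in edgeR with no filter (adjusted p = 0.00929) and in no other alternative setting. Of its 100-base runs, 6.27% also occur in AL353751.1. IFIT3 and IFIT5 had log2 fold changes of 0.30 and −0.05, and neither was called.

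Membrane proteins that restrict virus entry and release were also not called. IFITM3, which blocks fusion in endosomes, stood at 377, 414 and 423 CPM in Control and 703, 398 and 369 CPM in RSM3 (adjusted p = 0.586, edgeR). IFITM1 stood at 198, 246 and 263 CPM in Control and 407, 271 and 229 CPM in RSM3 (adjusted p = 0.360, edgeR). BST2, the tetherin gene, stood at 45.6, 53.6 and 53.3 CPM in Control and 86.5, 59.6 and 47.5 CPM in RSM3 (adjusted p = 0.327, edgeR). In all of these RSM3 replicate 1 was the highest library. RSM3 replicate 3 lay within the range of Control for IFITM1 and BST2 and just below it for IFITM3. IFITM2 and the scramblase gene PLSCR1 had log2 fold changes of 0.29 and −0.03. Of all 100-base runs in the annotated transcripts, 27.5% of those of IFITM1, 18.2% of IFITM2 and 3.13% of IFITM3 also occur in another gene, so the counts of each alone are uncertain. Exons on the opposite strand also cover 21.3% of the exonic bases of IFITM3.

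In the ISG15 system, ISG15 is attached to proteins by UBE2L6 and HERC5 and removed by USP18, and TRIM25 is an E3 ligase that also activates RIG-I and is a cofactor of ZAP. TRIM25 stood at 352, 380 and 409 CPM in Control and 334, 298 and 298 CPM in RSM3 (log2 fold change −0.29 ± 0.08, adjusted p = 0.0662, edgeR). All RSM3 values lay below all Control values. TRIM25 was called lower by DESeq2 (adjusted p = 0.0221) and, in edgeR, with library totals alone (adjusted p = 0.0249) and with GC and length corrected (adjusted p = 0.00806). In edgeR it was also called with no filter, with GC and length corrected plus the replicate block, and without RSM3 replicate 1. The other alternative settings gave no call, among them limma voom (adjusted p = 0.0596) and the replicate block alone (adjusted p = 0.0945, edgeR). Leaving out any other library gave adjusted p values of 0.122 to 0.252 (edgeR). ISG15 stood at 286, 348 and 317 CPM in Control and 479, 340 and 285 CPM in RSM3 (adjusted p = 0.528, edgeR), with both groups overlapping. UBE2L6, HERC5, HERC6 and USP18 had log2 fold changes of 0.35, 0.21, 0.27 and 0.11, none called, and 15.4% of the 100-base runs of USP18 also occur in USP41.

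Enzymes that make or modify antiviral nucleotides were, like most members, lowest in Control replicate 1. RSAD2 encodes viperin, which makes a chain-terminating nucleotide, and stood at 24.8, 38.9 and 55.3 CPM in Control and 63.0, 43.7 and 31.6 CPM in RSM3. CMPK2, its divergent neighbour and a nucleotide kinase gene, stood at 30.0, 44.2 and 49.3 CPM in Control and 57.5, 39.1 and 38.0 CPM in RSM3. Their adjusted p values were 0.816 and 0.809 (edgeR), and the groups overlapped in both.

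PARP9, PARP14 and DTX3L, neighbours on chromosome 3 whose products attach ADP-ribose or, for DTX3L, ubiquitin, had log2 fold changes of −0.04, 0.24 and −0.20. PARP14 stood at 150, 173 and 232 CPM in Control and 236, 206 and 213 CPM in RSM3 (adjusted p = 0.384, edgeR). PARP9 stood at 162, 205 and 245 CPM in Control and 234, 182 and 180 CPM in RSM3 (adjusted p = 0.925, edgeR). SAMD9 and SAMD9L, paralogues that restrict poxviruses, likewise overlapped between groups. SAMD9 stood at 104, 136 and 178 CPM in Control and 137, 118 and 114 CPM in RSM3. SAMD9L stood at 51.4, 61.6 and 89.8 CPM in Control and 91.7, 64.2 and 57.4 CPM in RSM3 (adjusted p = 0.609 and 0.910, edgeR).

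Transcriptional and nuclear body factors included IRF7, the amplifier of interferon gene transcription. IRF7 stood at 63.3, 75.6 and 71.4 CPM in Control and 99.1, 65.4 and 58.3 CPM in RSM3 (adjusted p = 0.852, edgeR). SP100, a nuclear body protein gene, stood at 104, 127 and 149 CPM in Control and 150, 124 and 121 CPM in RSM3 (adjusted p = 0.862, edgeR). IFI35 stood at 23.9, 28.6 and 33.6 CPM in Control and 43.6, 39.8 and 30.0 CPM in RSM3 (log2 fold change 0.39 ± 0.15, adjusted p = 0.179, edgeR). None separated the groups, and SP110, TRIM22 and XAF1 had log2 fold changes of 0.05, 0.27 and −0.0025. Exons of other genes on the opposite strand cover 38.3% of the exonic bases of XAF1 and 20.9% of those of SP110, and the strand setting of the counting is not given.

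Among the remaining inducible genes, IFI27, a mitochondrial and nuclear envelope protein gene, stood at 58.0, 62.7 and 64.2 CPM in Control and 86.8, 86.7 and 67.7 CPM in RSM3 (log2 fold change 0.38 ± 0.10, adjusted p = 0.0597, edgeR). Its groups did not overlap, and it was called higher by DESeq2 (adjusted p = 0.0208). In edgeR it was called with no filter and with GC and length corrected, with or without the replicate block. Leaving out RSM3 replicate 1 or RSM3 replicate 3 also gave a call for IFI27, and the other alternative settings did not. IFI6 stood at 164, 222 and 184 CPM in Control and 194, 246 and 217 CPM in RSM3 (adjusted p = 0.389, edgeR). IFI44L stood at 87.3, 112 and 156 CPM in Control and 107, 83.2 and 70.0 CPM in RSM3 (log2 fold change −0.45 ± 0.20, adjusted p = 0.275, edgeR). Its neighbour IFI44 had a log2 fold change of 0.05, and the groups overlapped in IFI6, IFI44 and IFI44L.

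Ratios of counts between paralogues within 1 library do not depend on its depth or scaling. They were computed, after the values had been seen, for all 19 pairs in 10 families of neighbouring members. In 8 pairs (42.1%) the RSM3 libraries lay outside the Control libraries, while in 11 they overlapped, and 22.8% of all 124385878 pairs of tested genes did not overlap. The 22.8% is over pairs of any genes, whereas the 19 pairs are of neighbours, most of which vary together between libraries. The 2 shares are therefore not like for like. Pairs of a family share genes and are not independent. The exact permutation test (two-sided) cannot give a p below 0.1 with 3 libraries per group, and adjusting over the 19 pairs raised that p to 0.237, so no pair passed. The pairs given next were picked from those that did not overlap.

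The ratio of IFI44L to IFI44 was 1.37, 1.21 and 1.24 in Control and 0.853, 0.901 and 0.926 in RSM3, a difference of −0.51 on the log2 scale. IFIT1 over IFIT2 gave 1.38, 1.42 and 1.56 in Control and 1.19, 0.934 and 0.915 in RSM3, a difference of −0.53. OAS2 over OAS3 gave 0.453, 0.485 and 0.500 in Control and 0.380, 0.409 and 0.395 in RSM3, a difference of −0.28. PARP9 over PARP14 gave 1.08, 1.18 and 1.06 in Control and 0.992, 0.887 and 0.845 in RSM3, also a difference of −0.28. None of these genes was called by itself in the main test. IFIT2 alone among them was called in an alternative setting, edgeR with no filter. By contrast MX1 over MX2 gave 11.2, 11.3 and 10.8 in Control and 9.68, 10.7 and 12.9 in RSM3, and those groups overlapped. They also overlapped for IFITM1 over IFITM2, at 1.81, 2.05 and 2.09 in Control and 2.04, 2.15 and 2.07 in RSM3. The IFITM1 and IFITM2 genes share 351 exonic bases on the same strand, so that ratio is uncertain.

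**Figure D5:**
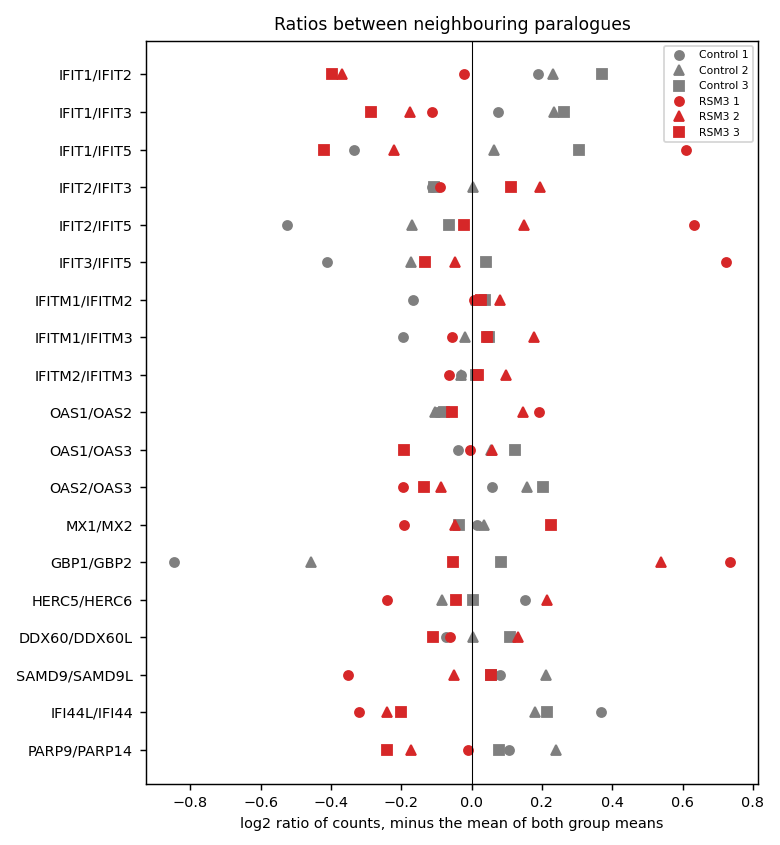
Log2 ratio of counts between neighbouring paralogues in each library, centred on the mean of both group means, with Control in grey, RSM3 in red and symbols for replicates. IFI44L/IFI44, IFIT1/IFIT2, OAS2/OAS3 and PARP9/PARP14 are lower in every RSM3 library than in every Control library, and the IFITM pairs overlap.

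Other genes of the pathway were counted from a list of 35, of which 27 were tested. IRF1 and IKBKE rose, none fell and 25 did not pass, with a median log2 fold change of 0.11. That is 7.41% of those tested, where 4.2% of all genes were called and 3.09% rose. IRF1, a transcription factor of the interferon-γ response, stood at 17.7, 17.9 and 17.5 CPM in Control and 33.7, 24.6 and 27.1 CPM in RSM3 (log2 fold change 0.68 ± 0.13, adjusted p = 0.00902, edgeR). IKBKE, a kinase of interferon regulatory factors, stood at 30.1, 30.1 and 31.4 CPM in Control and 47.3, 42.3 and 37.7 CPM in RSM3 (0.47 ± 0.10, adjusted p = 0.0217, edgeR). For both genes every RSM3 library lay above every Control library. In settings added after the data were seen, the IRF1 call was lost without Control replicate 1 (adjusted p = 0.0565, edgeR), without Control replicate 2 (adjusted p = 0.0597) and with the term for Control replicates 1 and 2 (adjusted p = 0.173), at log2 fold changes of 0.68 to 0.70. The IKBKE call was lost without any 1 of the Control libraries (adjusted p = 0.0650 to 0.126, edgeR), without RSM3 replicate 2 (adjusted p = 0.0692) and with that term (adjusted p = 0.311), at log2 fold changes of 0.43 to 0.50.

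The listed ligand genes other than IFNE were nearly silent in both groups, and IFNA1 was the only IFNA gene listed. Of 9 interferon genes, 8 did not reach the filter, with at most 4 counts in any library, and IFNK, IFNW1 and IFNG had 0 counts of 98231249, which allows up to 0.0305 CPM (3 counts, counting error only). IFNE, an epithelial interferon gene, stood at 2.48, 2.16 and 4.17 CPM in Control and 2.56, 3.24 and 2.26 CPM in RSM3. Receptor genes differed in level per length, with Control means of 16.7 ± 0.489 CPM per kilobase for IFNAR1, 0.350 ± 0.127 for IFNAR2 and 0.169 ± 0.0482 for IL10RB (SD, n = 3). IFNAR1 stood at 103 to 109 CPM in Control and 100.3 to 122 CPM in RSM3. Its partner subunit IFNAR2 stood at 0.949 to 2.07 CPM in Control and 0.903 to 1.497 CPM in RSM3, and IL10RB, a subunit of the type III interferon receptor, at 0.570 to 1.00 CPM and 0.374 to 0.978 CPM. None of the 6 receptor genes was called. IFNAR2 and IL10RB lie next to each other on the plus strand of chromosome 21. Exon overlap and shared runs of bases were counted for the members alone. Whether the counting rules lowered the counts of IFNAR2 and IL10RB was not tested.

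Members with and without a promoter match were also set side by side. The median fold of Control replicate 3 over replicate 1 was 1.52 in the 24 members with a match and 1.49 in the 14 without, where the median of all tested genes was 1.00. The median log2 fold change of RSM3 over Control was 0.21 with a match and 0.08 without. The windows of OAS1, DDX58 and RSAD2, counted as without a match, hold GGAAACGAAA, which differs from the core in a single letter. The window of TRIM25 holds the same letters on the other strand. IFI35 (GGAAATGAAA) and SAMD9L (AAAACTGAAA), also without a match, differ from the core in a single letter too. Near variants were not searched for in full. The division is thus by the exact core and does not separate members with and without the element.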

How the data were processed

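The table the authors deposited holds raw counts of reads per gene (whole numbers, not normalised) for 3 Control and 3 RSM3 libraries of poly(A) RNA made by a strand-marking dUTP method, per the labels' protocols. Tools listed in the submitters' processing notes are featureCounts, fastp, DESeq2 and STAR (2.7.1a), with build hg38. Which annotation release and strand setting were used, and whether multiply mapped reads were counted, is not given in the sources used here. Columns were matched to samples by title.

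Genes were filtered with filterByExpr (minimum count 10), leaving 15773 of 60545. Differences between RSM3 and Control were tested in edgeR (4.0.16, R 4.3.3) by its quasi-likelihood test, with TMM factors, robust dispersions and no covariate, and Benjamini-Hochberg adjustment over all genes tested (threshold 0.05). The common biological coefficient of variation was 10.3%. CPM values are TMM-normalised, and SEs derive from the F statistic. Alternatives used DESeq2 (1.42.0) and limma voom (3.58.1). Fits were tested on simulated counts. Replicate pairs differed by more than sampling noise (chi-square per degree of freedom 3.20 to 18.0), so all 6 libraries were kept. Positions, exonic length, GC content and shared runs of 100 bases came from GENCODE 29 (GRCh38). The offset for GC and length used loess (span 0.5, degree 2).

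The members, lists and tests were chosen with earlier results of these data known. Values in every library are given for members with an adjusted p under 0.05, the 3 with the smallest p, and in each role group the 2 with the highest level and the 1 with the smallest p. GBP2, IRF1, IKBKE and the other genes named with values were chosen after their values were seen. Some items are not reported here.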

Additional observations from a re-analysis of the deposited data

How the results depend on the processing

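In 16 alternative settings, ZC3HAV1 was called lower in each. Counts over all genes moved to 308 rises with library totals alone, 392 falls with no filter, 1188 rises and 454 falls with GC and length corrected, 1033 and 377 with that step and the replicate block, and 100 and 18 with a term for Control replicates 1 and 2. Without each library in turn, rises ran from 177 to 1447 and falls from 37 to 946, the highest without RSM3 replicate 1, and members that rose from 0 to 2 and fell from 1 to 2. Members that rose were 6 with no filter: BST2, GBP1, GBP2, IFI27, IFI35 and IFIT2. By DESeq2 they were 2, GBP1 and IFI27. With GC and length corrected they were 3, GBP2, IFI27 and ISG20, and adding the replicate block put IFI6 in place of ISG20. They were 0 with the replicate block alone or the Control term. Members that fell were 2, TRIM25 besides ZC3HAV1, with library totals alone, no filter, DESeq2, and GC and length corrected with or without the replicate block. The replicate block gave 467 rises and 186 falls, and GBP1 then had an adjusted p of 0.0927 (edgeR). Same-numbered libraries deviated together with correlations of 0.030, −0.025 and 0.044, and Control replicate 2 correlated best with RSM3 replicate 1, so the numbers were not taken as pairs.

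Several members that were not called changed sign. With the Control term, where the lone Control replicate 3 is assumed to vary like the rest, the median of the members was −0.14, and log2 fold changes were −0.14 for DDX58, −0.16 for DDX60L, −0.033 for MX1, −0.020 for MX2, −0.27 for RSAD2, −0.14 for CMPK2, −0.090 for PARP14, −0.34 for SAMD9L and −0.18 for SP100. SP100 was at −0.0023 with library totals alone. Without each library in turn the ranges were −0.055 to 0.22 for DDX58, −0.26 to 0.13 for OAS2, −0.36 to 0.14 for IFIT1, −0.076 to 0.45 for IFITM3, −0.073 to 0.44 for MX1, −0.16 to 0.55 for MX2, −0.075 to 0.53 for RSAD2, −0.10 to 0.27 for CMPK2, −0.019 to 0.37 for ISG15, −0.18 to 0.12 for PARP9, −0.35 to 0.037 for SAMD9, −0.15 to 0.33 for SAMD9L, −0.18 to 0.23 for IRF7 and −0.065 to 0.19 for SP100. The cause was not tested. A fit without both Control replicate 1 and RSM3 replicate 1 was planned and not run, since they would have been picked by the measured outcome. The 3 members highest per length carried 44.5% of the members' summed level per length, and the 3 highest by CPM 23.0% of their summed CPM. The motif share was 55.3% with a C required after the core and 65.8% without its last A.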
